A study of Mus musculus with 31 samples.

Results

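The E proteins and their Id inhibitors are 6 of the 18193 genes named on the Affymetrix mouse genome array used here, and 22 of its 45037 non-control probe sets measure them. All probe sets of these genes were taken, 3 for Tcf3 (chromosome 10), 8 for Tcf4 (chromosome 18), 6 for Tcf12 (chromosome 9), 1 for Id1 (chromosome 2), 3 for Id2 (chromosome 12) and 1 for Id3 (chromosome 4). The platform annotation named 19 of them, and 3 more were added because the study's lists place them in introns of Tcf4 (1446953_at and 1442903_at) and Tcf12 (1443012_at). These 3 intronic probe sets are kept apart from the others here. The study chose 1446953_at and 1443012_at as lower in its Crebbp+/- samples. Probe set 1442903_at comes from its list of quantitative RT-PCR targets drawn up after the arrays. The direction, p-values and calls of these 3 in those samples are therefore not independent evidence.

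E proteins are basic helix-loop-helix (bHLH) transcription factors that bind the E box, CANNTG, as dimers with each other or with tissue-restricted bHLH factors. Tcf3 encodes E12 and E47, Tcf4 encodes E2-2 and Tcf12 encodes HEB. In blood they drive lymphoid genes and, paired with TAL1 or LYL1, genes of stem and erythroid cells. Id proteins have the helix-loop-helix but lack the basic region, so a dimer of an Id and an E protein does not bind DNA. BMP signals through SMAD proteins are a well-known inducer of Id1, Id2 and Id3.

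Mutant and WT cells were compared in 4 experiments. FL HSCs are fetal liver cells sorted as Lin-, SCA1+, AA4.1+ and KIT++ at 14.5 dpc, with 15 embryos pooled in a sample and 12 ng of RNA amplified before labelling. Crebbp+/- and Ep300+/- FL HSCs, which lack 1 copy of a histone acetyltransferase gene in every cell, were each represented by 2 samples and set against 2 samples of WT littermates on the C57BL/6 background, with 2 technical arrays for each sample. Cdkn1a-/- FL HSCs, from a purchased Cdkn1a tm1Tyj strain that lacks the cell cycle inhibitor p21, were represented by 4 samples and set against 3 samples of separately purchased B6129SF2 WT mice, so the line and its control are not littermates. Crebbp+/- mouse embryonic fibroblasts (MEFs) and WT MEFs were each represented by 4 samples, 1 embryo of each genotype from each of 4 litters at 14.5 dpc, on the C57BL/6 background. The labels give the amplification kit for all samples, whereas the study's methods give unamplified RNA for the MEFs.

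Values are log2 GCRMA levels, normalized by the authors separately in each experiment, so that a level was compared only within an experiment and only for the same probe set. Between 11199 and 19522 probe sets per array reached log2(100), or 6.64, the minimum intensity of the study's methods, with the most in the Cdkn1a arrays (18947 to 19522). Arrays have no sequencing depth, so precision depends on how many were run. Of the stem and progenitor markers, 6 of 6 measured (among them Kit, Cd93 and Cd34) were above that minimum in every FL HSC sample. In every MEF sample 8 of 8 fibroblast markers were above it. These counts do not measure purity, since they also hold for Cdkn1a WT sample 3, described next. Cdkn1a WT sample 3 stood apart from the other 6 samples of its experiment. Its mean over the markers was 8.60 for erythroid cells (2.49 to 3.08 in the others), 13.75 for hepatocytes (4.19 to 7.96), 10.05 for macrophages (4.88 to 5.26) and 13.73 for granulocytes and monocytes (7.73 to 10.59). The log2 changes of that experiment that moved without it are given both ways.

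Promoter sequence is shown for Id2 and Id3, the Id genes with the largest changes in the Cdkn1a comparison below. The table of RefSeq promoters held windows for 4 of the 6 genes (Tcf3, Tcf12, Id2 and Id3), and the 250 bases before the transcript start of Id2 (GRCm38.p6 chr12:25096093-25096342, minus strand) and Id3 (GRCm38.p6 chr4:136143572-136143821, plus strand) are shown 5′ to 3′, with matches to the searched motifs in capitals.
Id2: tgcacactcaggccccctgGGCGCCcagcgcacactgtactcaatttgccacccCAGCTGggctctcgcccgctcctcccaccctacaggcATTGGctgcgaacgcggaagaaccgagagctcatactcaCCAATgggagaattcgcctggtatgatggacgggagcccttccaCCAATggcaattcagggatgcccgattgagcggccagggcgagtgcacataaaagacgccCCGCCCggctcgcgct
Id3: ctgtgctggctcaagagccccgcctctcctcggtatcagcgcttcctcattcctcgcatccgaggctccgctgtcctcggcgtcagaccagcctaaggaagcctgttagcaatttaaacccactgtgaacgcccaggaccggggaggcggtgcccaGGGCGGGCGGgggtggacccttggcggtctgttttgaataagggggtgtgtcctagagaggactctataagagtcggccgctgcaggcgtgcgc
The motifs, searched on both strands, were the E box CANNTG, the CCAAT box, the GC box GGGCGG, the cAMP response element TGACGTCA and the GC element GGCGCC that BMP-activated SMADs are known to bind. The Id2 window held 1 E box (CAGCTG, 196 bases before the start), 3 CCAAT boxes, 1 GC box and 1 GGCGCC. The Id3 window held 2 overlapping GC boxes and no match to the other 4 motifs. Among 32851 windows of the same length, 66.2% held an E box, 33.8% a CCAAT box, 32.7% a GC box, 9.6% GGCGCC and 1.5% the cAMP response element. A match describes the letters and says nothing about what binds there.

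Each member was tested with limma across all probe sets whose highest sample reached the minimum, and a call needed a Benjamini-Hochberg adjusted p under 0.05 together with a change of more than 1.5-fold. Of the 22 member probe sets, 14 were measured in the Crebbp and Ep300 FL HSCs, 20 in the Cdkn1a FL HSCs and 14 in the MEFs. The 8 that stayed below the minimum in all Crebbp and Ep300 FL HSC samples were 1427764_a_at and 1452542_x_at of Tcf3, 1416725_at of Tcf4, 1421908_a_at and 1446294_at of Tcf12, 1422537_a_at and 1453596_at of Id2 and the single probe set of Id3, so a single probe set of Tcf3 and of Id2 stands for those genes there. In Crebbp+/- FL HSCs 2 of the 14 were called, both intronic probe sets of Tcf4 and both lower, against 0.383% of all tested probe sets (51 of 13332, of which 41 were lower). Nothing is read from that share, because the intronic probe sets joined the members through the study's work on these samples. The median log2 change was -0.10 over the 14, 0.02 over the 11 outside the intronic ones and 0.05 over all tested probe sets. A further 3 member probe sets, all of Tcf12, passed an unadjusted p under 0.05 with that fold, which makes 5 of 14 against 10.0% of all tested probe sets. Outside the intronic ones 2 of 11 passed, and nothing is read from the 5 of 14 for the same reason.

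The intronic Tcf4 probe set 1442903_at had levels of 5.37 and 5.02 in Crebbp+/- samples, against 7.05 and 6.61 in WT samples. The groups did not overlap, and the mutant was lower by 1.68 in pair 1 and 1.59 in pair 2. It fell by 1.64 on the log2 scale (95% confidence interval -1.94 to -1.34, limma adjusted p = 0.0486, standard error 0.116), to 32.2% of the WT level. Both Crebbp+/- samples lay below the minimum, and WT sample 2 did too, so the size of this change is not exact. On single arrays all 4 mutant values (4.06 to 5.97) were below all 4 WT values (6.30 to 7.27). These are 2 technical arrays of each of 2 samples, so they do not add samples to the comparison.

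The second intronic Tcf4 probe set, 1446953_at, had levels of 5.86 and 6.53 in Crebbp+/- samples, against 7.21 and 8.12 in WT samples. Both Crebbp+/- samples lay below the minimum, so here too the size is not exact. The samples again did not overlap, and the probe set fell by 1.47 on the log2 scale (limma adjusted p = 0.0486, standard error 0.119). Its technical arrays were less uniform. In pair 1 the first arrays read 6.58 in the mutant and 6.49 in WT, whereas the second arrays read 5.15 and 7.93, and over both pairs the change was -0.84 from the first arrays alone and -2.10 from the second arrays alone. Neither call held in the fit without the replicate block, in which 0 members were called (adjusted p = 0.376 for 1442903_at and 0.581 for 1446953_at), and neither held without pair 1, without pair 2 or with the 4 Crebbp samples alone.

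The intronic probe set of Tcf12, 1443012_at, read 6.56 and 6.78 in Crebbp+/- samples, against 7.565 and 7.95 in WT samples. It was lower in both pairs (-1.01 and -1.16) with no overlap, and just missed the call at a log2 change of -1.09 (limma adjusted p = 0.0508, standard error 0.129). Among the Tcf12 probe sets on no list of the study, 1439619_at read 7.33 and 8.04 in Crebbp+/- samples against 7.94 and 9.16 in WT samples, and 1439209_at read 5.84 and 5.24 against 6.90 and 5.84. Both were lower in 2 of 2 pairs, with log2 changes of -0.86 (limma adjusted p = 0.0724) and -0.83 (adjusted p = 0.0901), and the genotypes overlapped at 1439619_at and were less than 0.01 apart at 1439209_at. At 1439209_at only WT sample 1 reached the minimum, and no Ep300 FL HSC sample did. It was therefore tested only through a sample of the group where it was higher. Whether these unlisted probe sets lie in exons was not determined here.

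**Figure D1:**
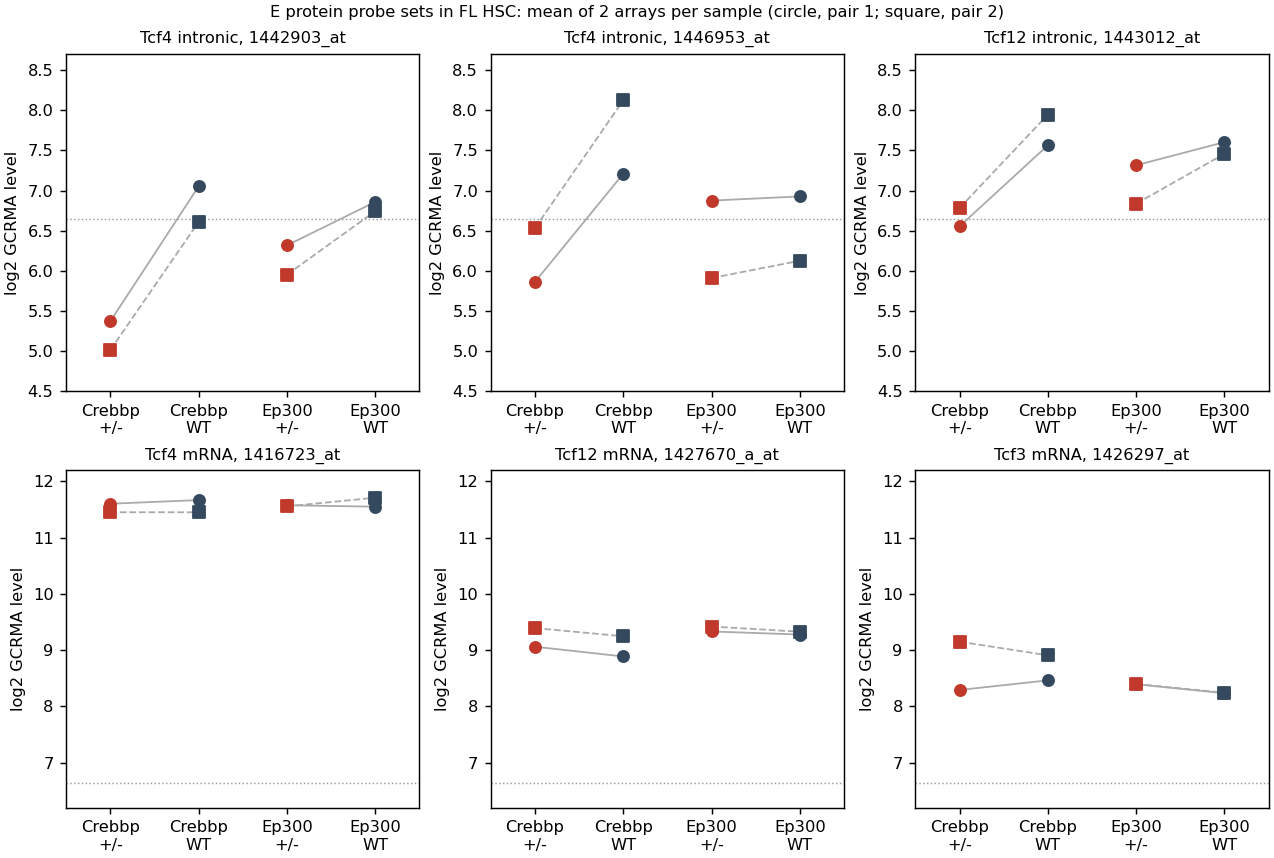
Log2 GCRMA level (y axis) of 6 E protein probe sets in Crebbp and Ep300 FL HSC samples, mutant (red) left of WT (dark blue), with each point the mean of 2 arrays, lines joining the pair of the same number and the dotted line at log2(100). The intronic probe sets in the upper row lie lower in both Crebbp+/- samples than in their WT partners, while Tcf4 mRNA stays between 11.45 and 11.71.

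The brightest mRNA probe set of Tcf4, 1416723_at, read 11.60 and 11.45 in Crebbp+/- samples, against 11.67 and 11.45 in WT samples. The groups overlapped, and the log2 change was -0.03 (95% confidence interval -0.31 to 0.25, limma adjusted p = 0.890). Tcf12 mRNA (1427670_a_at) read 9.06 and 9.39 in the mutant and 8.89 and 9.25 in WT, a log2 change of 0.16 (-0.10 to 0.42, adjusted p = 0.393). Tcf3 mRNA (1426297_at) read 8.29 and 9.15 in the mutant and 8.46 and 8.91 in WT, a log2 change of 0.04 (-0.32 to 0.39, adjusted p = 0.903), with the pairs in opposite directions. The other 4 measured Tcf4 probe sets changed by -0.24 to 0.20 and none was called. The intervals of the 3 brightest probe sets leave room for changes of up to about 0.4 on the log2 scale, and those of the other Tcf4 probe sets reach -0.56 (1434149_at) and 0.73 (1424089_a_at), so smaller changes in E protein mRNA were not detectable with 2 pairs.

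Set against the brightest mRNA probe set of the same gene within each pair, the intronic signal of Tcf4 changed in the mutant by -1.28 and -1.59 at 1446953_at (mean -1.44) and by -1.61 and -1.59 at 1442903_at (mean -1.60). For Tcf12 the difference was -1.18 and -1.31 (mean -1.25). With the mean of all measured Tcf12 probe sets outside the intronic one in place of the brightest, the Tcf12 value was -0.58, because the unlisted probe sets named above were lower too. No test was attached to these differences, since the study selected 1446953_at and 1443012_at on these samples. The limma values given above for the intronic probe sets carry the same limit.

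The intronic probe sets and the unlisted Tcf12 ones differed more between technical arrays than most probe sets did. The 2 arrays of a sample differed by a median of 0.83 at 1442903_at, 0.88 at 1446953_at and 0.78 at 1443012_at over 8 samples, with largest differences of 2.13, 1.44 and 2.27. It was 0.75 at 1439209_at, with a largest difference of 3.16, and 0.52 at 1439619_at. The same median was 0.08 at the Tcf4 mRNA probe set, 0.24 at the Tcf12 mRNA probe set and 0.21 over all tested probe sets. Correlation of whole arrays gave no sign of this, with r of 0.989 to 0.994 between technical arrays.

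No Id gene was called in these cells. Id1 (1425895_a_at) read 6.93 and 6.32 in Crebbp+/- FL HSCs, against 6.43 and 5.83 in WT. It was higher by 0.50 and 0.49 in the pairs, although the pairs differ so much that the groups overlap, and the log2 change of 0.50 (95% confidence interval 0.20 to 0.80) was not called (limma adjusted p = 0.0980). Only the mutant sample of pair 1 reached the minimum. Id2 (1435176_a_at) read 8.07 and 8.34 in the mutant and 7.64 and 8.66 in WT, a log2 change of 0.06 (adjusted p = 0.889) with the pairs in opposite directions. Id3 lay below the minimum in every sample, at 5.21 and 5.21 in the mutant and 5.14 and 4.99 in WT, and was not tested.

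Some markers of other cells differed between these samples, and their part in the results was not tested. The mean over 6 megakaryocyte markers was 3.66 and 3.83 in Crebbp+/- FL HSCs, against 4.12 and 4.10 in WT, with at most 1 of the 6 above the minimum in any sample. The mean over 6 endothelial markers was 4.03 and 3.96 in the mutant, against 4.35 and 4.41 in WT, with 1 of them above the minimum in each sample. The mean over 6 hepatocyte markers was 5.39 and 5.76 in the mutant, against 3.02 and 6.49 in WT, with 0 to 4 of them above the minimum. None of the 5 erythroid markers and none of the 5 T cell markers reached the minimum in any of these samples. In sorted cells measured in bulk, fewer cells of a type and less RNA per cell cannot be told apart.

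In Ep300+/- FL HSCs limma called 0 of 14 member probe sets, as it called 0% of all 13332. At an unadjusted p under 0.05 with a fold over 1.5, 1 member passed, against 0.780% of all tested probe sets, and the methods' paired test passed 0 members. The 1 was the intronic Tcf4 probe set 1442903_at, which read 6.32 and 5.95 in Ep300+/- samples, against 6.86 and 6.74 in WT samples. It was lower in both pairs with no overlap of the samples, with a log2 change of -0.67 (95% confidence interval -0.97 to -0.37, limma adjusted p = 1.0). Both Ep300+/- samples lay below the minimum, so the size is not exact. Single arrays overlapped, from 5.68 to 6.92 in the mutant and from 5.79 to 7.92 in WT.

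The Tcf12 intronic probe set 1443012_at read 7.32 and 6.84 in Ep300+/- samples, against 7.60 and 7.46 in WT samples, a log2 change of -0.45 (limma adjusted p = 1.0). At 1446953_at the levels were 6.88 and 5.91 in the mutant and 6.93 and 6.13 in WT, so that the pairs differed far more than the genotypes (log2 change -0.13). Tcf4 mRNA changed by -0.07 (-0.35 to 0.22), Tcf12 mRNA by 0.07 and Tcf3 mRNA by 0.16, none of them called. Id1 was lower in both pairs, at 7.73 and 8.04 in Ep300+/- samples against 8.13 and 8.16 in WT samples, a log2 change of -0.26 (-0.56 to 0.05) with no call. Id2 read 8.24 and 8.41 in the mutant and 8.27 and 8.53 in WT, and Id3 again lay below the minimum (5.91 and 6.33 in the mutant, 5.80 and 6.24 in WT).

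Whether the effect of Crebbp+/- differed from that of Ep300+/- was tested in the joint fit, which called 0 of 14 members and 0% of all probe sets. Without adjustment 6 of the 14 passed, 3 of them intronic and 3 among the 11 others, against 9.98% of all tested probe sets. They were the intronic probe sets of Tcf4 (-1.33 at 1446953_at and -0.97 at 1442903_at) and Tcf12 (-0.63), the unlisted Tcf12 probe sets (-1.03 at 1439619_at and -0.97 at 1439209_at) and Id1 (0.76, 95% confidence interval 0.33 to 1.18, limma adjusted p = 0.188). Nothing is read from the 6 of 14, because the intronic probe sets joined the members through the study's work on the Crebbp samples. At 1439209_at every Ep300 sample lay below the minimum, and only Crebbp WT sample 1 reached it. Nothing is read from its difference or from the 3 among the 11 others. Negative values mean a lower signal in Crebbp+/- relative to its WT than in Ep300+/- relative to its own. After adjustment a difference between the genotypes was not shown for any member.

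**Figure D2:**
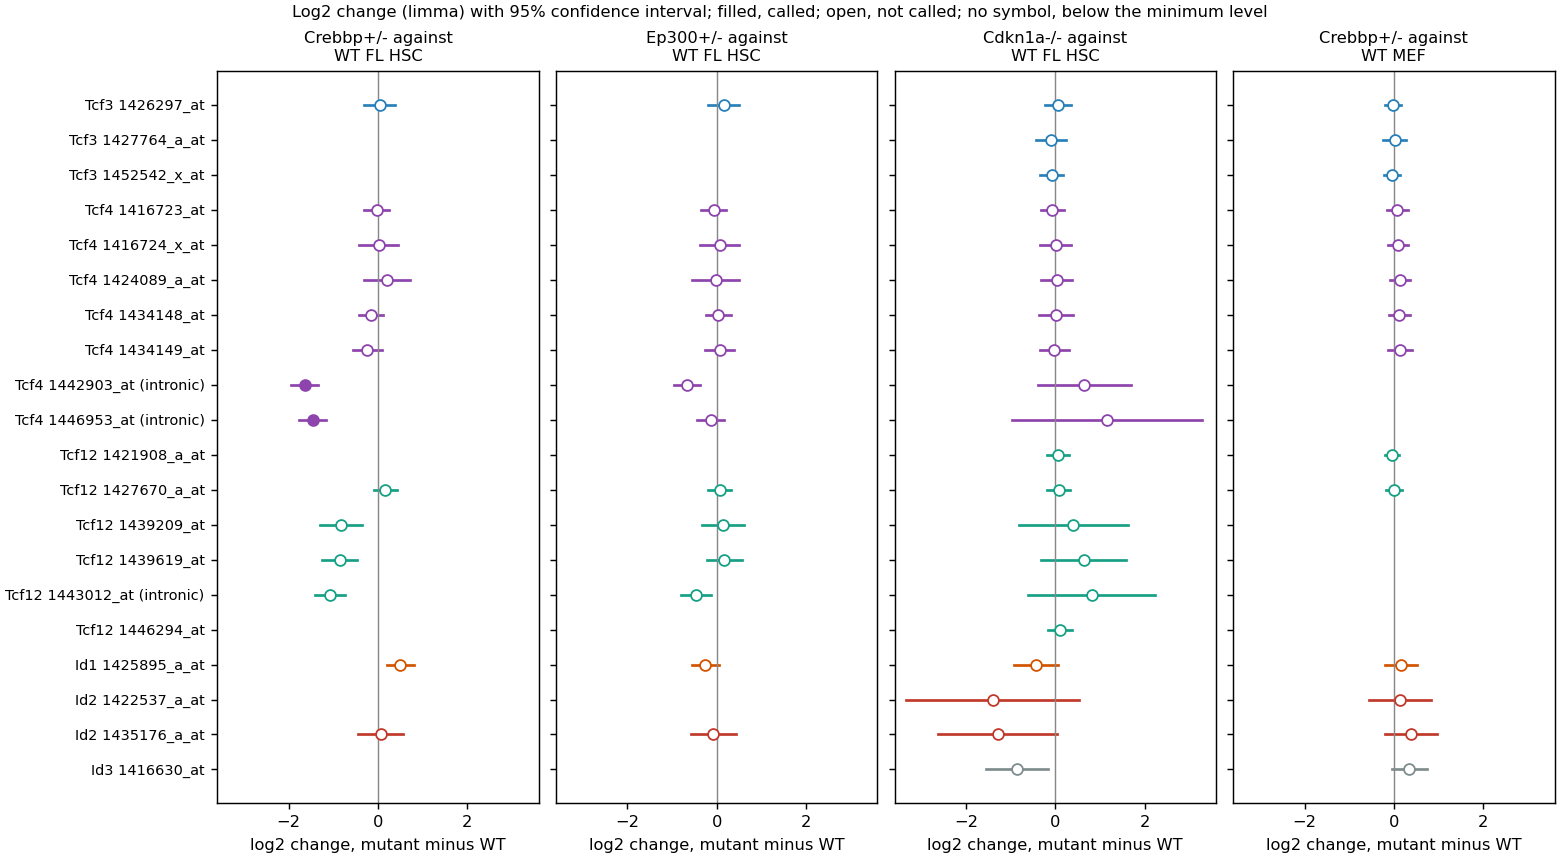
Log2 change of each measured member probe set (rows) in each of the 4 comparisons (panels), mutant minus WT, with bars for the 95% confidence interval of the limma fit, filled symbols for calls and open symbols for probe sets that were not called. The 2 filled symbols are the intronic Tcf4 probe sets in Crebbp+/- FL HSCs, which joined the members through the study's work on these samples. The bars of the intronic and Id probe sets are longest in the Cdkn1a comparison.

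In Cdkn1a-/- FL HSCs limma called 0 of 20 member probe sets, against 0.405% of all 20962 tested. Without adjustment 1 passed, Id3, against 4.05% of all, and the methods' test in an unpaired form passed the same 1 member without adjustment and 0 after it. Id3 (1416630_at) read 10.45, 10.45, 9.91 and 9.83 in Cdkn1a-/- samples, against 11.00, 10.50 and 11.56 in WT samples. All 4 mutant samples were below all 3 WT samples, by as little as 0.05, and the log2 change was -0.86 (limma adjusted p = 0.572, standard error 0.29).

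Id2 spread widely within both genotypes. At 1435176_a_at it read 11.25, 11.34, 10.64 and 9.61 in Cdkn1a-/- samples, against 11.82, 11.23 and 12.95 in WT samples, a log2 change of -1.29 (95% confidence interval -2.62 to 0.04) with overlapping groups and no call. Its second probe set, 1422537_a_at, gave 10.60, 10.85, 9.32 and 8.27 in the mutant, against 10.86, 10.10 and 12.53 in WT (log2 change -1.40). Mutant sample 4 was lowest and WT sample 3 highest at both. Id1 read 9.41, 9.60, 9.33 and 9.70 in the mutant, against 9.57, 9.90 and 10.38 in WT, a log2 change of -0.44 with no call. All 4 measured Id probe sets were thus lower in the mutant mean.

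Each of these probe sets was highest in Cdkn1a WT sample 3, the sample with the highest erythroid, hepatocyte, macrophage and granulocyte markers. Without it the log2 changes were -0.59 for Id3 (limma adjusted p = 0.832), -0.82 and -0.72 for Id2 and -0.22 for Id1, and limma still called 0 members. Leaving out WT sample 3 did not make the groups alike in hepatocyte markers. The mean over these 6 markers was 5.97 to 7.96 in Cdkn1a-/- samples and lower in both remaining WT samples. Of the 6, 3 to 5 reached the minimum in each Cdkn1a-/- sample, against 1 in WT sample 1 and 1 in WT sample 2. The part of these other cells in the Id levels was not tested, with or without WT sample 3.

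The intronic E protein probe sets were lowest in the sample where the Id probe sets were highest. At 1446953_at the levels were 8.56, 9.27, 8.43 and 7.91 in Cdkn1a-/- samples, against 8.24, 8.80 and 5.10 in WT samples. At 1442903_at they were 8.43, 9.12, 8.63 and 8.51 in the mutant, against 8.515, 8.63 and 6.92 in WT, and at the Tcf12 probe set 1443012_at they were 8.31, 8.95, 9.01 and 8.425, against 8.395, 8.84 and 6.34. WT sample 3 was lowest at all 3, and the remaining samples overlapped. The log2 changes of 1.16, 0.65 and 0.81 shrank to 0.02, 0.10 and 0.06 without that sample, and none was called with or without it.

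The brightest mRNA probe sets of the E proteins spanned less than 0.4 over all 7 samples. Tcf4 mRNA (1416723_at) ranged from 13.46 to 13.59 in the mutant and from 13.39 to 13.71 in WT. Tcf12 mRNA (1427670_a_at) ranged from 12.33 to 12.57 in the mutant and from 12.26 to 12.55 in WT, and Tcf3 mRNA (1426297_at) from 10.76 to 11.00 in the mutant and from 10.62 to 10.99 in WT. The log2 changes were -0.06, 0.08 and 0.06, each with an interval within 0.4 on either side of 0, and -0.16, 0.00 and -0.05 without WT sample 3. Of the other measured E protein probe sets, 1439619_at of Tcf12 read 9.04, 9.61, 10.27 and 9.98 in the mutant, against 9.16, 9.71 and 8.39 in WT (log2 change 0.64, or 0.29 without WT sample 3), and 1439209_at read 6.88 (sample 1) to 7.72 in the mutant and 5.61 (sample 1) to 7.69 in WT (log2 change 0.40, or 0.82 without WT sample 3). The remaining 8 changed by -0.10 to 0.11, and by -0.10 to 0.13 without WT sample 3, and none was called.

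**Figure D3:**
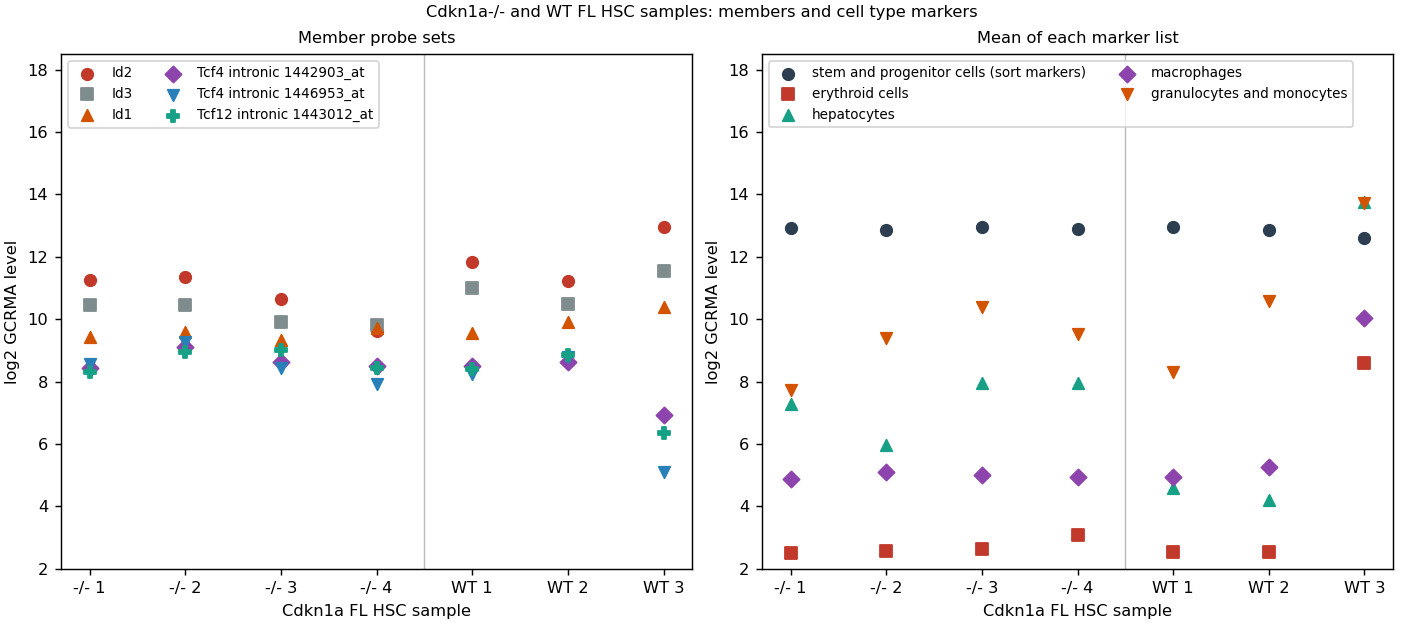
Log2 GCRMA level (y axis) in each Cdkn1a FL HSC sample (x axis, the 4 mutant samples left of the 3 WT samples) of Id and intronic E protein probe sets (left) and of the mean over each marker list (right). In WT sample 3 the Id probe sets are highest (12.95 for Id2) and the intronic ones lowest (5.10 at 1446953_at). The erythroid, hepatocyte, macrophage and granulocyte lists are highest there, while the stem and progenitor markers average 12.61.

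In MEFs limma called 0 of 14 member probe sets, as it called 0% of all 15502. No member passed without adjustment, against 0.961% of all tested probe sets, and the methods' paired test passed 0 members. All 3 intronic probe sets lay below the minimum in all 8 samples, between 2.73 and 4.53, so their signal was not measured in these cells. At both Tcf4 probe sets the WT sample of litter 1 was highest (4.53 at 1442903_at and 3.61 at 1446953_at), and Tcf4 mRNA was also highest in it (11.99). The unlisted Tcf12 probe sets 1439209_at and 1439619_at, lower in Crebbp+/- FL HSCs, were also below the minimum in every MEF sample, between 4.29 and 6.21.

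E protein mRNA was measured in every MEF sample and was steady. Tcf4 (1416723_at) ranged from 11.73 to 11.91 in Crebbp+/- MEFs and from 11.62 to 11.99 in WT MEFs, with a log2 change of 0.08 (95% confidence interval -0.15 to 0.31). Tcf12 (1427670_a_at) ranged from 11.09 to 11.26 in Crebbp+/- MEFs and from 11.07 to 11.35 in WT MEFs (log2 change 0.00, -0.17 to 0.18), and Tcf3 (1426297_at) from 9.86 to 10.11 and from 9.87 to 10.21 (log2 change -0.03, -0.21 to 0.15). All 5 measured mRNA probe sets of Tcf4 were slightly higher in the mutant mean (0.08 to 0.14) and none was called.

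The Id genes varied more between litters than between genotypes. Id3 (1416630_at) read 11.83, 11.41, 11.34 and 12.01 in Crebbp+/- MEFs of litters 1 to 4, against 11.99, 11.11, 10.90 and 11.22 in their WT littermates. It was higher in the mutant in 3 of 4 litters, with a log2 change of 0.34 (95% confidence interval -0.05 to 0.74, limma adjusted p = 0.758). Id2 (1435176_a_at) read 10.63, 9.50, 9.43 and 10.46 in the mutant, against 10.50, 9.04, 9.67 and 9.27 in WT, a log2 change of 0.38 (-0.21 to 0.97). Id1 read 9.905, 8.42, 8.83 and 9.74 in the mutant, against 10.00, 8.56, 8.58 and 9.14 in WT, a log2 change of 0.16 (-0.20 to 0.51).

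The same 3 samples were highest for all 3 genes, both MEFs of litter 1 and the mutant MEF of litter 4. Without litter 4 the second Id2 probe set, 1422537_a_at, changed by -0.22 in place of 0.13, so its direction rested on that litter. The changes of the other Id probe sets were also smaller without litter 4, at 0.01 for Id1, 0.11 for Id2 (1435176_a_at) and 0.19 for Id3. The mean over 8 macrophage markers ranged from 5.23 to 5.57 in Crebbp+/- MEFs and from 4.88 to 6.17 in WT MEFs, highest in WT litter 3. The part of macrophages in the Id levels was not tested.

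**Figure D4:**
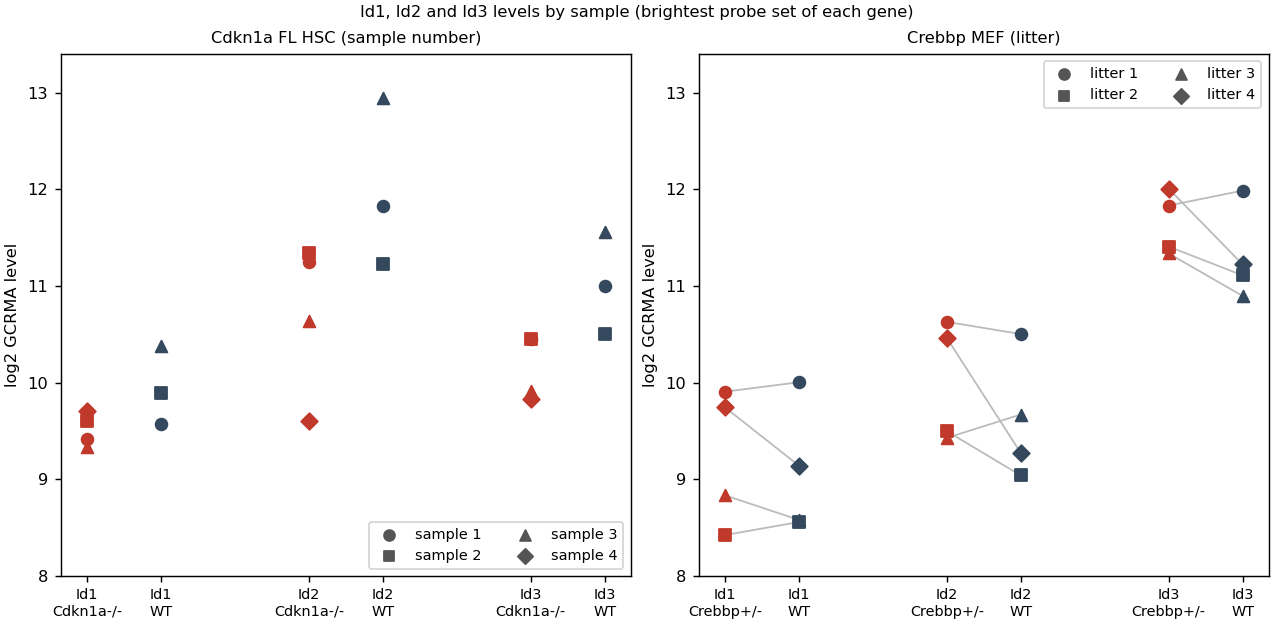
Log2 GCRMA level (y axis) of Id1, Id2 and Id3 in each sample of the Cdkn1a FL HSC experiment (left) and the Crebbp MEF experiment (right), mutant (red) left of WT (dark blue), with symbols for the sample number or the litter and lines joining littermates. In MEFs the samples of litter 1 and the mutant of litter 4 are highest for each gene, and in FL HSCs the Cdkn1a WT sample 3 is.

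Partners and targets of the E proteins were read from lists of known genes. In the list of the hematopoietic bHLH complex, which holds the partners TAL1 and LYL1, LIM-domain adaptors and GATA factors, 9 of 13 genes were measured in Crebbp+/- FL HSCs, 6 were lower, and none was called. The smallest p values belonged to Lyl1 (9.55 in the mutant and 9.91 in WT, log2 change -0.36, limma adjusted p = 0.162), the adaptor Lmo2 (-0.26) and the corepressor Cbfa2t3 (-0.26). In Ep300+/- FL HSCs 7 of the 9 were higher, with the smallest p values for Tal1 (0.24), Ssbp3 and Cbfa2t2. In the Cdkn1a comparison 12 were measured with 7 higher (4 of 11 without WT sample 3), and in MEFs 6 with 3 higher, and again none was called. The list's median log2 change of -0.12 in Crebbp+/- FL HSCs stood beside a median of 0.05 over all tested probe sets.

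Of 17 lymphoid genes on the array known as E protein targets, 6 were measured in Crebbp and Ep300 FL HSCs and none was called, with 3 higher and 3 lower in Crebbp+/- samples and 2 higher and 4 lower in Ep300+/- samples. Ebf1, the early B cell factor, read 7.72 in Crebbp+/- samples and 6.34, below the minimum, in WT samples (means, n = 2 each; log2 change 1.38, limma adjusted p = 0.133, standard error 0.391). It was below the minimum in Ep300+/- samples (3.83) and in their WT samples (5.03). Notch1 (0.53, adjusted p = 0.121) and the interleukin 7 receptor gene Il7r (0.70, adjusted p = 0.212) also had higher means in Crebbp+/- samples, and Flt3 (-0.11), Gfi1 (-0.15) and Gfi1b (-0.21) had lower ones. In the Cdkn1a comparison the pre-B cell receptor genes Vpreb1 (-1.70) and Igll1 (-2.18) had the smallest p values of 12 measured, of which 6 were higher and 6 lower, with standard errors of 1.19 and 1.54. Without WT sample 3 they changed by -1.21 and -1.52, and 5 of the 12 were higher. In MEFs Ebf1 read 8.35 in Crebbp+/- samples and 9.02 in WT samples (-0.67, adjusted p = 0.564).

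In the list of BMP and TGF-beta ligands, receptors and SMADs upstream of the Id genes, 9 of 17 genes were measured in Crebbp+/- FL HSCs, 7 were higher and none was called. Endoglin (Eng), a co-receptor of this family, was lower (7.49 in the mutant and 8.15 in WT, log2 change -0.66, limma adjusted p = 0.175), Smad5 was higher (0.38, adjusted p = 0.177) and Smad4, the common SMAD, was lower (-0.25). In MEFs 13 were measured and 8 were higher, with the smallest p values for the ligand Bmp4 (11.02 in the mutant and 10.68 in WT, 0.34, adjusted p = 0.564), the inhibitory Smad7 (0.35) and Eng (-0.39). In the Cdkn1a comparison 7 of 11 were higher (4 of 11 without WT sample 3), with the smallest p values for Tgfbr2 (-0.32, or -0.41 without that sample), Tgfb1 (0.43, or 0.22) and Tgfbr1 (0.18, or 0.10), and in Ep300+/- FL HSCs 4 of 9 were higher, with Eng at -0.35.

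The genes whose pattern was most like each member were found by Pearson's r over all 23 samples, each taken as its deviation from the mean of its experiment, among 9420 probe sets measured in every experiment. Tcf3 was most like Dpf2 (r = 0.898), Rnf220 and Trim28, Tcf4 most like Dnmt3a (0.83), Klhl24 and Pank2, and Tcf12 most like Smad4 (0.883), Slc25a20 and Dpf2. Id1 was most like Ankrd13c (0.884), Tor1aip1 and Macir, and Id2 most like Ubxn4 (0.835), Mbd2 and Cd82. Without Cdkn1a WT sample 3 the r of Id2 with Ubxn4 was 0.739 and that of Tcf4 with Dnmt3a was 0.801. Samples of an experiment share normalization, pairs and litters, so these values only describe the libraries, and Id3 had no entry because it was not measured in every experiment.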

How the data were processed

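The deposited files hold log2 values from GCRMA (sequence-based background correction, quantile normalization and probe set summary), which the authors ran separately on the arrays of each of the 4 experiments. The 64 control probe sets were left out, technical arrays were averaged, and every probe set with at least 1 sample at log2(100) or above was tested in R 4.3.3 with limma 3.58.1. Crebbp and Ep300 FL HSC samples were fitted jointly with each pair as a block, Cdkn1a samples unpaired, and MEFs with the litter as a block. The methods use paired tests, and the labels give the MEF litters. FL HSC mutant and WT samples were paired here by equal sample number, because the methods do not say which pool goes with which. Deviations of same-numbered samples correlated with r of 0.7 (Crebbp), 0.396 (Ep300) and 0.186 to 0.461 (MEF), and those of MEFs of different litters with r of -0.609 to 0.586. With 2 FL HSC samples of a genotype, crossed pairs give the same r with the opposite sign (-0.7 and -0.396). These values therefore cannot establish the FL HSC pairing. Labels do not say that the FL HSC pools were independent. For Crebbp and Ep300 FL HSCs the p-values measure the spread of differences within pairs, shared over both experiments. In MEFs they measure the spread of differences within litters, and in the Cdkn1a comparison the spread between samples of a genotype.

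Genes were named from the platform annotation through their Entrez identifiers. Of the probe sets, 34945 had 1 symbol, 932 several and 9160 none. A gene outside the members is represented by its brightest probe set. The members and lists were chosen with earlier results of these data known. Named genes are all members, called genes of the lists and the 3 smallest p of each list. Alternatives were other filters, centring, a variance trend, the methods' t-test, single technical arrays and left-out samples. The gene lists without Cdkn1a WT sample 3 were added after seeing the data. The tests were tried on simulated data.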

Additional observations from a re-analysis of the deposited data

Results flagged for a closer look

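Among 48 combinations of a measured member probe set and a group of 4 samples, 3 had 1 sample far from the other 3, and chance gives about 1 in 20. Tcf3 at 1427764_a_at read 8.22 in Cdkn1a-/- sample 3 and 8.64 to 8.65 in the other Cdkn1a-/- samples. Tcf12 at 1446294_at read 7.65 in Cdkn1a-/- sample 1 and 7.30 in each of the other Cdkn1a-/- samples. Tcf3 at 1452542_x_at, a probe set type that can hybridize to more than 1 transcript, read 6.98 in the WT MEF of litter 3 and 6.72 to 6.76 in the other WT MEFs.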

How the results depend on the processing

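Precision was limited by 2 pairs in the Crebbp and Ep300 comparisons, by intronic signals near the minimum level and by technical arrays that differed at those probe sets. No count of called members in the Ep300, Cdkn1a or MEF comparison or for Crebbp+/- set against Ep300+/- left 0, except for 1 Cdkn1a member in the methods' t-test before adjustment. In Crebbp+/- FL HSCs the 2 calls became 4 with a variance trend, which called 876 of all probe sets. They became 0 of the members and 0 of all probe sets with no filter, with no replicate block, with technical array 1 or 2 only, with the experiment's 4 samples alone, with the methods' t-test after adjustment and without pair 1 or pair 2. All probe sets called numbered 205 with at least 2 samples at the minimum level, 208 with each sample centred and 199 in the methods' t-test before adjustment, where 3, 3 and 2 members were called. The cause of these differences was not tested. For Ep300 the t-test before adjustment passed 11 probe sets. For Cdkn1a 42 were called with no filter, 6 with the replicate block on numbers 1 to 3, 548 in the t-test before and 141 after adjustment, and 38 to 87 with 1 sample left out. For MEFs 2 were called with no replicate block, 61 passed the t-test before adjustment, and 0 to 2 were called with 1 litter left out. The replicate block changed no call of a member other than the intronic Tcf4 probe sets.

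The intronic minus mRNA change of Tcf4 in Crebbp+/- FL HSCs was -0.75 from technical array 1 and -2.12 from array 2. For Tcf12 the value was -0.58 against the mean of all measured probe sets outside the intronic one. That mean takes in the lower unlisted ones, whose place in exons or introns was not determined. Over 677 values of single members under alternatives, 611 kept direction and call, 17 lost a call, 6 gained one and 43 had the other sign. None of the 43 was called in either setting. In Crebbp+/- FL HSCs these were, with each sample centred, Tcf3 1426297_at at -0.01 and Tcf4 1416724_x_at at -0.03, with technical array 2, Tcf3 1426297_at at -0.18, Tcf4 1416723_at at 0.02 and 1416724_x_at at -0.19, and with array 1, Id2 1435176_a_at at -0.11. With 1 pair left out the values ran from -0.17 to 0.24 (Tcf3 1426297_at), -0.19 to 0.23 (Tcf4 1416724_x_at), -0.18 to 0.58 (1424089_a_at) and -0.31 to 0.43 (Id2 1435176_a_at). In Ep300+/- FL HSCs they were, with array 2, Tcf3 1426297_at at -0.16, Tcf4 1416724_x_at at -0.12 and 1446953_at at 0.03, Tcf12 1439209_at at -0.87 and Id2 1435176_a_at at 0.23, and with array 1, Tcf4 1424089_a_at at 0.05 and 1434148_at at -0.15, and Tcf12 1427670_a_at at -0.04 and 1439619_at at -0.19. With 1 pair left out Tcf4 ran from -0.15 to 0.03 (1416723_at), -0.15 to 0.29 (1416724_x_at), -0.10 to 0.05 (1424089_a_at), -0.05 to 0.12 (1434148_at) and -0.07 to 0.20 (1434149_at), and Tcf12 1439209_at from -0.10 to 0.37. In the Cdkn1a comparison centring gave -0.02 at Tcf4 1416724_x_at and -0.01 at 1434148_at. With 1 sample left out the values ran from -0.05 to 0.14 (Tcf3 1426297_at), -0.04 to 0.12 (Tcf4 1416724_x_at), -0.04 to 0.13 (1424089_a_at), -0.10 to 0.09 (1434148_at), -0.14 to 0.04 (1434149_at) and -0.22 to 0.82 (Tcf12 1439209_at). In MEFs with 1 litter left out they ran from -0.08 to 0.07 (Tcf3 1427764_a_at) and -0.22 to 0.31 (Id2 1422537_a_at).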

Other observations

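Other inhibitors of bHLH factors and the mesenchymal partners of E proteins were below the minimum in all FL HSC comparisons, where 0 of 6 and 0 of 11 genes were measured. In MEFs Id4, the remaining Id gene, read 8.31 in Crebbp+/- samples and 8.77 in WT samples (log2 change -0.47, limma adjusted p = 0.776, standard error 0.301), opposite in direction to the 4 measured probe sets of Id1, Id2 and Id3, though none of these changes was called. Hes1, a repressor induced by Notch signals, read 7.63 and 7.22 in the same order (0.41, standard error 0.573). The fibroblast bHLH factors Twist2 (-0.44) and Twist1 (-0.14) had lower means in Crebbp+/- MEFs and were not called.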
